A study of Mus musculus with 3 samples.

Results

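The renin-angiotensin genes were followed in sorted ureteric bud cells of the E10.5 mouse embryo. They were chosen by name as Agt, Ren1, Ace, Agtr1a, Agtr1b, Agtr2, Atp6ap2 and Mas1, and 6 of these 8 genes had a probe set annotated with that symbol alone, among 19938 genes in all. Ren1, which encodes renin, and Agtr1b, the second mouse gene for the type 1 angiotensin receptor, had none listed and are not analysed here. The samples were 3 arrays of 1 group. Each array held the sorted cells of 1 ureteric bud of a CD-1 embryo at 10.5 days post coitum (Theiler stage 18), sex unknown, with the transgene Tg(Hoxb7-EGFP)33Cos. All buds carried this transgene, in which Hoxb7 regulatory sequence drives EGFP in the duct and its bud, and no group without it, of another age or of another tissue was used here. Bud cells were freed with trypsin and sorted on their fluorescence, and their RNA was amplified in 1 round. With 1 group the question open to the data is which parts of the system gave a signal above background in the bud itself.

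In this hormone system renin cuts angiotensinogen, the product of Agt, to angiotensin I, and the peptidase encoded by Ace trims it to angiotensin II. Angiotensin II acts through the type 1 receptor (Agtr1a and Agtr1b) and the type 2 receptor (Agtr2), while the shorter peptide angiotensin-(1-7) acts through the receptor Mas1. Atp6ap2 encodes the (pro)renin receptor, which is also an accessory protein of the vacuolar proton pump. In the developing kidney, loss of components of this system disturbs ureteric bud branching and the growth of the papilla.

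Values are log2 signals, 1 for each probe set and array. Olfactory receptors, taken as silent in this tissue, served as background: the 95th percentile of their 1035 probe sets, computed on each array, was 5.40, 5.45 and 5.41 log2 on arrays 1, 2 and 3. A gene was called above background where the mean of its values minus these levels, here its margin, exceeded 0 at an adjusted p under 0.05 (limma, one-sided, Benjamini-Hochberg over all genes). By this rule 10567 of 19938 genes (53.0%) were above background, and 46 of 1027 olfactory receptor genes (4.48%) were too. The olfactory share is largely fixed by the choice of the 95th percentile of the same family and measures no error rate. Bud markers were called in 12 of 12 genes, with a mean of 8.46, 8.17 and 8.08 log2 on arrays 1, 2 and 3, and these included Calb1, Gata3, Ret and Hoxb7. Precision is limited by the 3 arrays, and in sorted cells taken as a bulk, fewer cells of a type and less RNA per cell cannot be told apart.

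Of the 6 measured members, 2 were above background, Atp6ap2 and Agt, and 4 were not, namely Ace, Agtr1a, Agtr2 and Mas1. The share called among all genes was 53.0%, and the median margin was −0.56 log2 over the members and 0.22 log2 over all genes. The converting enzyme and the angiotensin receptors among these members lay under the background level, the (pro)renin receptor over it and Agt just over it. 5 of the 6 members held 1 identical value on all 3 arrays, as did 51.7% of all genes, so no spread between buds can be given for them. For such genes the error of the margin comes from the 3 background levels and from limma's prior, and the p measures no difference between buds.

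**Figure D1:**
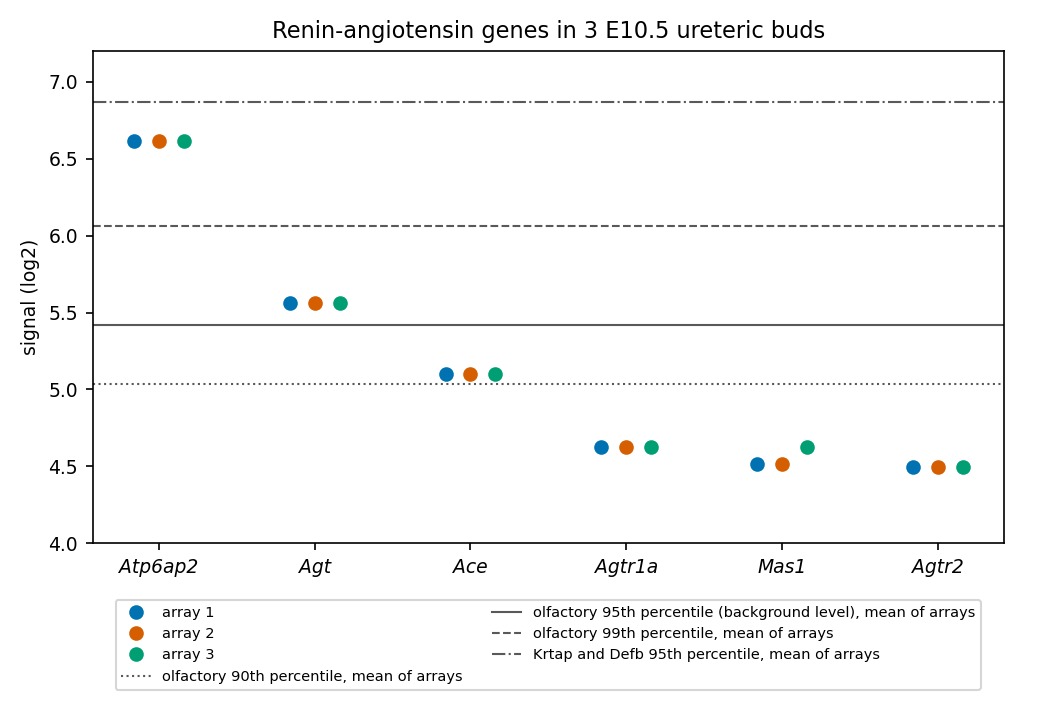
Signal in log2 (y axis) of the 6 measured members (x axis), with 1 point for each of the 3 arrays and horizontal lines at 4 background levels, each the mean over the arrays. Atp6ap2 at 6.61 lies over the olfactory levels, Agt at 5.56 lies just over the 95th percentile, and Agtr1a, Mas1 and Agtr2 lie below all 4 lines.

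Atp6ap2, the (pro)renin receptor, had the highest margin of the members. Its signal was 6.61 log2 on each of the 3 arrays. This was 1.21, 1.16 and 1.21 log2 over the background level of arrays 1, 2 and 3, a margin of 1.19 ± 0.02 log2 (SE, n = 3, limma adjusted p = 6.15e-06). Of the 1035 olfactory receptor probe sets, 2 were at or above it on array 1 (0.193%), 4 on array 2 and 5 on array 3. The value of Atp6ap2 is the same on each array, so a fit without 1 array changes only the background level and the error. The call was kept at the 99th percentile of the olfactory receptors (0.55 log2) and without array 1, 2 or 3, where 48.5%, 52.8% and 48.8% of all genes were called. It was lost against keratin-associated proteins and beta-defensins, whose 95th percentile was 6.82, 6.91 and 6.87 log2 on arrays 1, 2 and 3 (margin −0.25 log2), a background that left 21.1% of all genes called.

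Agt, the gene of the precursor from which all angiotensin peptides are cut, had a signal of 5.56 log2 on each of the 3 arrays. It lay 0.16, 0.11 and 0.15 log2 over the background level of arrays 1, 2 and 3. With 1 value on all arrays, these small differences vary only through the background level, so their shared direction is no agreement between buds. The margin was 0.14 ± 0.02 log2 (SE, n = 3, limma adjusted p = 0.00481). On array 1, 38 olfactory receptor probe sets (3.67%) were at or above it, and 43 and 40 were on arrays 2 and 3. The call was lost without array 1 (limma adjusted p = 0.298), without array 3 (0.28), with an SD floor for identical values (0.0711, 51.1% of all genes called) and at the 99th percentile, where the margin was −0.50 log2 and 35.3% of all genes were called. It was also lost against keratin-associated proteins and beta-defensins (−1.31 log2).

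The promoters of these genes, shown because they are the members above background, differ in kind. RefSeq (GRCm38.p6) gives the 250 bases before the start of Atp6ap2 as chrX:12587509-12587758 on the plus strand and those of Agt as chr8:124569707-124569956 on the minus strand. Capitals mark CG dinucleotides in Atp6ap2 and the motif TATAAA in Agt.
Atp6ap2: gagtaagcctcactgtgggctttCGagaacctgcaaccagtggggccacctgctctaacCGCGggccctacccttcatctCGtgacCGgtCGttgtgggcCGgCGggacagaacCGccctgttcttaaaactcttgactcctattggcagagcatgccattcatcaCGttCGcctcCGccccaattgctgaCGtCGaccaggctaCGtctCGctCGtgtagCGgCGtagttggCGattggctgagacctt
Agt: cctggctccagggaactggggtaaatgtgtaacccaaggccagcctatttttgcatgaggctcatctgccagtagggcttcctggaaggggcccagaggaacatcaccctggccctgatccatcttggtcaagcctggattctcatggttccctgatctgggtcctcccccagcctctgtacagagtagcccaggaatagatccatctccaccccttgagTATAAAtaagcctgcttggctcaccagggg
Atp6ap2 has 20 CG dinucleotides here, more than 82.1% of 32851 promoter windows of this length, whose median was 6, and TATAAA was not found on either strand. Agt has 0 CG dinucleotides, and TATAAA begins 30 bases before its start. That motif was found on the gene's strand in 7.59% of all windows and on either strand in 12.4%. These matches describe the letters of the windows, and no measurement of factor binding was made here.

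Ace, the angiotensin-converting enzyme, was the member nearest to the background level from below. Its signal was 5.10 log2 on each of the 3 arrays, and the differences from the background level were −0.30, −0.35 and −0.31 log2 on arrays 1, 2 and 3 (margin −0.32 ± 0.02 log2, SE, n = 3, limma adjusted p = 1). Between 89 and 98 olfactory receptor probe sets, 8.60% to 9.47%, were at or above it. At the 90th percentile of the olfactory receptors, where 63.7% of all genes were called, it was called with a margin of 0.06 log2 (limma adjusted p = 0.00369). It was also called against vomeronasal receptors (0.28 log2, limma adjusted p = 0.0148), where 65.8% were. Ace is known from endothelium. In the main setting the endothelial markers were above background in 9 of 12 genes, where 53.0% of all genes were. Their mean was 6.58, 5.89 and 6.93 log2 on arrays 1, 2 and 3. Their part in the signal of Ace was not tested, since its deposited values carry no spread between arrays.

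The angiotensin II receptors were further down. Agtr1a, the type 1 receptor that couples to Gq, had a signal of 4.62 log2 on each of the 3 arrays (margin −0.80 ± 0.02 log2, SE, n = 3, limma adjusted p = 1). Between 191 and 201 olfactory receptor probe sets were at or above it, 18.5% to 19.4%. Agtr1b is a close relative of Agtr1a, and whether its transcript also binds the Agtr1a probes was not tested. Agtr2, the type 2 receptor, had a signal of 4.50 log2 on each of the 3 arrays (margin −0.92 ± 0.02 log2, SE, n = 3, limma adjusted p = 1), with 21.8% to 23.3% of the olfactory receptor probe sets at or above it. Neither receptor was above background under any of the alternatives that kept it, the lowest background included, where the margins were −0.19 log2 for Agtr1a and −0.32 log2 for Agtr2.

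Mas1, the receptor for angiotensin-(1-7), was the member that varied between buds, with signals of 4.51, 4.51 and 4.62 log2 on arrays 1, 2 and 3. Arrays 1 and 2 were alike, and array 3 was higher by 0.11 log2, which left every array below its background level. The mean was 4.55 ± 0.06 log2 (SD, n = 3) and the margin −0.87 ± 0.04 log2 (SE, n = 3, limma adjusted p = 1). Mas1 and Agtr1a could not be ordered, since Mas1 reached the level of Agtr1a on array 3, while Agtr2 was the lowest member on every array. The mean of the endothelial markers was also highest on array 3, with 6.58, 5.89 and 6.93 log2 on arrays 1, 2 and 3. Cdh5 and Tie1 were highest on array 1, Flt1 was equal on arrays 1 and 3, and the other markers were highest on array 3. Their part in the difference of Mas1 was not tested. A signal in the range of the olfactory receptors does not show that a transcript is absent, and differences between probe sets also carry the binding strength of their probes.

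**Figure D2:**
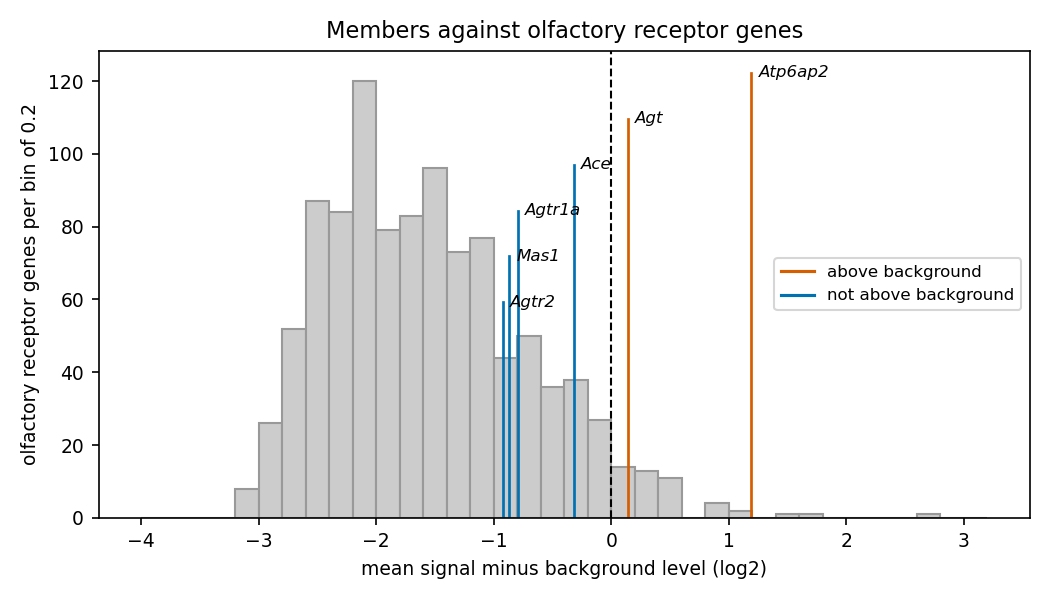
Histogram of the margin (x axis, log2 over the background level, dashed line at 0) of 1027 olfactory receptor genes, in bins of 0.2 (y axis, genes per bin), with a vertical line for each measured member, whose height has no meaning. Atp6ap2 at 1.19 lies at the upper tail, Agt at 0.14 just right of the dashed line, and Ace, Agtr1a, Mas1 and Agtr2 lie left of it within the histogram.

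Deposited values identical on all 3 arrays were often shared between probe sets. Of the 14486 probe sets identical on all 3 arrays, 84.2% had the value of at least 1 other probe set (all 3 values rounded to 5 decimals). Among the probe sets that vary the share was 2.01%. These shares are not like for like, since a varying probe set must match in more than 1 distinct value and an identical one in only 1. The value of Agtr2 was that of 157 other probe sets within 1e-06 log2, that of Ace was shared with 69, that of Agt with 68 and that of Agtr1a with 4. Atp6ap2 shared its value with 1 other probe set and Mas1 with 0. Across the buds no member differed by over 0.5 log2 between its highest and lowest array, whereas 1671 genes (8.38%) did, so no genes of like pattern across the arrays are named.

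The enzymes that process angiotensin peptides outside the members were above background in 8 of 13 measured genes, where 53.0% of all genes were. Prep, a prolyl peptidase that can cut angiotensin I and II to angiotensin-(1-7), had signals of 8.82, 8.38 and 8.39 log2 (margin 3.11 ± 0.12 log2, SE, n = 3, limma adjusted p = 3.93e-05). Ctsd, cathepsin D, a lysosomal aspartic protease related to renin, had 8.63, 7.65 and 7.82 log2, highest on array 1 (limma adjusted p = 0.000632). Prcp, a carboxypeptidase of angiotensin II, had 7.23, 6.86 and 7.33 log2 (limma adjusted p = 0.000267). The mast cell and neutrophil proteases Cpa3 and Ctsg had the lowest margins, −1.81 and −1.40 log2. Other enzymes are named after their values were seen. Mme, neprilysin, which forms angiotensin-(1-7) from angiotensin I, was above background with 6.83 log2 on each array (margin 1.41 ± 0.02 log2, limma adjusted p = 4.03e-06). Enpep, aminopeptidase A, which cuts angiotensin II, was not (margin −0.96 log2), and Anpep, aminopeptidase N, missed the threshold with a margin of 0.06 log2 (limma adjusted p = 0.0607). Anpep was called in 4 of the 12 alternatives that kept it.

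Among other receptors of the system and partners of its receptors, 4 of 7 measured genes were above background, near the 53.0% of all genes. Arrb2, a beta-arrestin that binds activated receptors, was at 6.54 log2 and Agtrap, a protein that binds the type 1 receptor, at 6.002 log2, each identical on all 3 arrays (margins 1.12 and 0.58 log2, limma adjusted p of 7.16e-06 and 4.77e-05). Arrb1 had a margin of 0.21 log2. The fourth, named after its values were seen, was Mrgprd, the receptor of the angiotensin peptide alamandine, at 5.60, 5.60 and 5.57 log2 (margin 0.17 ± 0.02 log2, SE, n = 3, limma adjusted p = 0.00246). The calls of Mrgprd and Arrb1 were lost without array 1 (limma adjusted p of 0.225 and 0.147) and without array 3 (0.177 and 0.134). The margin of Arrb1 was still 0.19 log2 in each of these fits, and its signal was 5.65 log2 on both array 1 and array 3. A fit without 1 array also changes the error, so the loss does not show that these buds carry the signal. Mtus1, a partner of the type 2 receptor, and the bradykinin receptor Bdkrb1 were not above background, with margins of −0.69 and −0.28 log2.

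The subunits of the vacuolar proton pump, with which Atp6ap2 assembles, were above background in 17 of 23 measured genes (53.0% of all genes were), with a median margin of 1.61 log2. The highest were Atp6v1g1 (10.50, 10.38 and 10.13 log2), Atp6v1d (9.36, 9.43 and 9.59 log2) and Atp6v1f (10.01, 9.09 and 9.07 log2), which encode parts of the cytosolic sector. Atp6ap1, the other accessory protein, was at 7.26 log2 on each array. The 6 subunits not above background were Atp6v0d2 (margin −2.26 log2), Atp6v1g3 (−1.54), Atp6v1c2 (−0.84), Atp6v1b1 (−0.51), Atp6v0a4 (−0.45) and Atp6v1e2 (−0.33). These are isoforms known from particular cells. Atp6v1b1, Atp6v0a4 and Atp6v1g3 are typical of the acid-secreting intercalated cells that arise later in the collecting duct, and Atp6v1e2 is typical of testis. Apart from the lowest pair, they and Atp6ap1 are named after their values were seen.

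**Figure D3:**
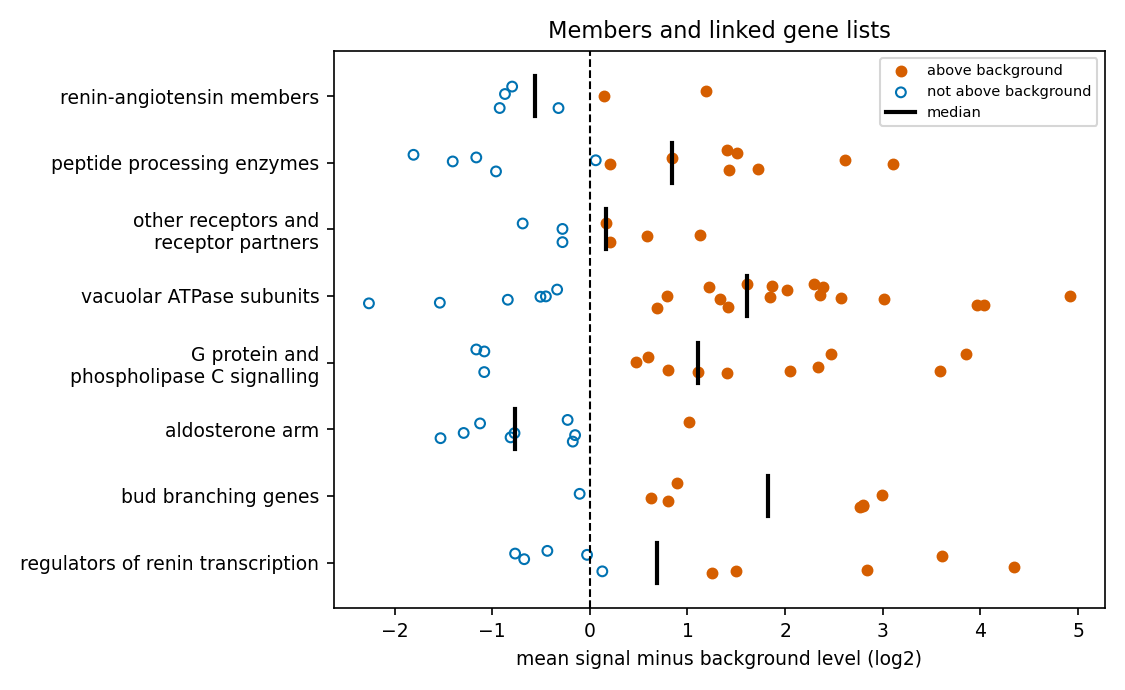
Margin over the background level (x axis, log2, dashed line at 0) of each measured gene of the members and of 7 linked lists (rows), with filled points above background, open points not above it and a black bar at the median. The members have a median of −0.56 and the vacuolar ATPase subunits one of 1.61.

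Genes of G protein and phospholipase C signalling, through which the type 1 receptor acts, were above background in 10 of 13 measured genes (53.0% of all genes were). The inhibitory G protein genes Gnai3 and Gnai2 and the G12/13 family gene Gna13 led them, with margins of 3.85, 3.59 and 2.47 log2. Gnaq, which encodes the Gq subunit that the type 1 receptor uses and is named after its values were seen, was at 7.47 log2 on each array. Prkca, a protein kinase C gene, and Plcb2, a phospholipase C gene, had the lowest margins, −1.16 and −1.08 log2.

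The aldosterone arm, the steroid branch downstream of angiotensin II, was above background in 1 of 9 measured genes. This was Hsd11b2, the enzyme that inactivates glucocorticoid, at 6.43 log2 on each of the 3 arrays (margin 1.02 ± 0.02 log2, SE, n = 3, limma adjusted p = 9.43e-06). Nr3c2, the mineralocorticoid receptor, had 3.86, 3.86 and 3.95 log2 (margin −1.53 log2), and Scnn1a, a subunit of the epithelial sodium channel, had a margin of −1.29 log2. The background share was 53.0%. The count was 4 of 9 at the 90th percentile of the olfactory receptors, where 63.7% of all genes were called.

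Of 8 genes of bud branching, 7 were above background (53.0% of all genes were). The leading ones were Ret, Gfra1 and Pax2, with margins of 2.99, 2.80 and 2.80 log2, and all of them were highest on array 1 and lowest on array 3. Gdnf, the ligand made by the mesenchyme, was not above background (margin −0.10 log2), and Wnt11 had the next lowest margin, 0.63 log2. Spry1, an inhibitor of receptor tyrosine kinase signalling that angiotensin II is known to lower in bud cultures, was at 6.31 log2 on each array (margin 0.89 ± 0.02 log2, SE, n = 3, limma adjusted p = 1.34e-05), and it is named after its values were seen. The olfactory receptor gene Olfr1394, of the family taken as silent, had the same mean of 6.31 log2. This limits what the call of Spry1 can show.

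Regulators of renin transcription were above background in 5 of 10 measured genes, near the 53.0% of all genes. The cAMP-response factor Creb1 had 9.76, 9.75 and 9.76 log2 (margin 4.34 log2), and its co-activators Crebbp and Ep300 had margins of 3.61 and 2.84 log2. Vdr, the vitamin D receptor, and Gja5, the connexin of renin cells, had the lowest margins, −0.77 and −0.67 log2. Of the list of mural cell and renin lineage markers, 1 of 8 measured genes was above background, where 53.0% of all genes were. Their mean was 5.02, 4.98 and 4.99 log2 on arrays 1, 2 and 3. The gene called was Cspg4, at 5.80 log2, named after its values were seen. Those not called included Acta2, Myh11 and Rgs5. Akr1b7 of this list and Ren1 were not measured, so the count does not assess the renin lineage itself. Markers of mesenchyme and stroma were above background in 2 of 10 genes, of erythroid cells in 3 of 6 and of leukocytes in 3 of 6 (53.0% of all genes were). The genes below are named after their values were seen. Hbb-y varied, with 8.86, 5.48 and 8.52 log2, and was not called, while Alas2 and Slc4a1 were, with margins of 0.22 and 0.41 log2. The leukocyte genes called were Cd68, Cx3cr1 and C1qc (margins 0.89, 0.79 and 0.22 log2). Ptprc, Csf1r and Adgre1 lay below background (−0.94, −0.86 and −1.32 log2). The erythroid mean was 6.66, 5.43 and 6.33 log2 on arrays 1, 2 and 3, lowest on array 2, where the endothelial mean was lowest too. The part of these cells in the members' signals was not tested.

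**Figure D4:**
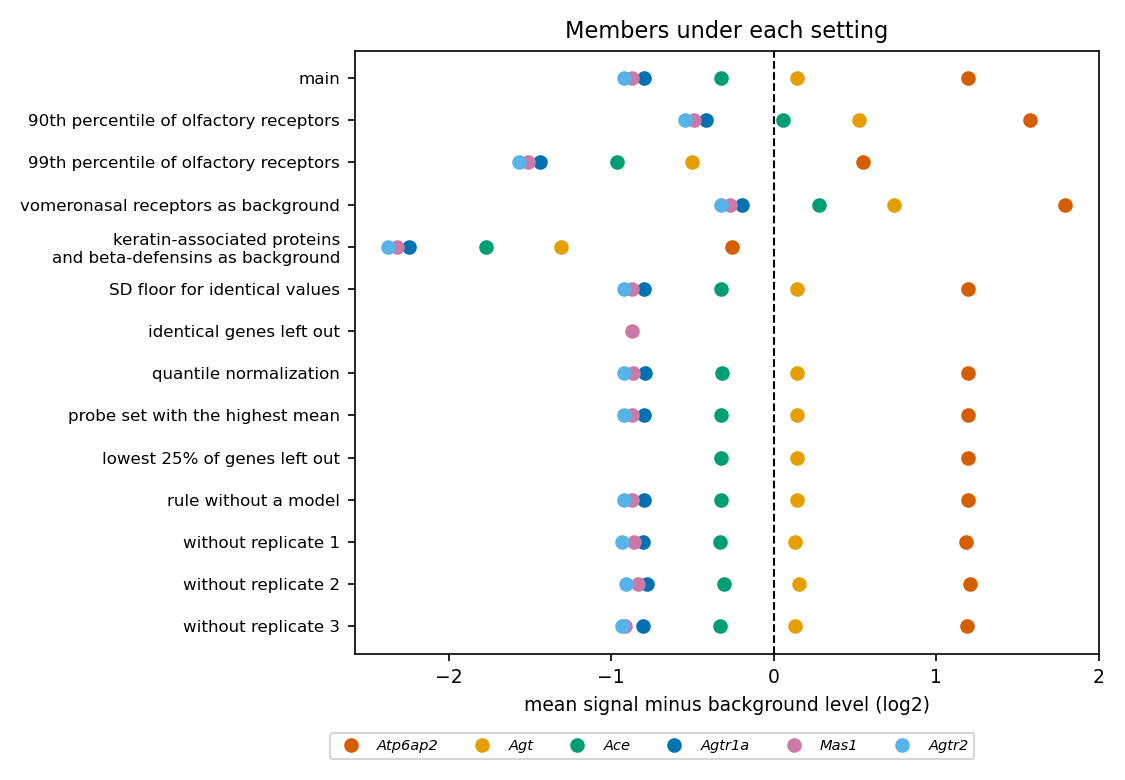
Margin over the background level (x axis, log2, dashed line at 0) of the 6 measured members in the main setting and in 13 alternatives (rows), with 1 colour for each member; a member without a point was not part of that fit. Atp6ap2 lies right of 0 wherever it was fitted except against keratin-associated proteins and beta-defensins (−0.25), and Agtr1a, Mas1 and Agtr2 lie left of 0 wherever fitted.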

How the data were processed

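Affymetrix arrays measured RNA in 3 samples of 1 group. The authors deposited 1 value for each of 35557 probe sets and array, on a log2 scale whose base was inferred from the range of the values. Per the submitters' processing notes, Affymetrix Expression Console made them; its background correction, normalization and probe summary settings were not given in the sources used here. Array medians were 5.47, 5.50 and 5.48 log2, and values were used as deposited. The platform annotation named the probe sets (21789 with 1 gene symbol, 1621 with several, 12147 with none listed), and only the first kind was used. No probe set with several symbols included a member. Probe sets of 1 gene were averaged.

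The test was limma 3.58.1 in R 4.3.3, one-sided, on the value minus the array's background level. In the simulated data on which it was checked every gene varied between arrays. Genes with identical values, Atp6ap2 and Agt among them, are therefore not covered by that check. The prior that limma estimated had 1.71 degrees of freedom (prior SD 0.05 log2). 13 alternatives were run, listed in the closing section. The 7 linked lists and 6 marker lists, the members and the tests were chosen with earlier results of these data known, so no p is adjusted over a list. Of each linked list, the 3 genes above background with the highest margins and the 2 with the lowest were named by rule. Nothing says whether the buds came from separate litters. Promoter windows are from RefSeq (GRCm38.p6), which held 7 of the 8 named members. Coordinates of probe sets are not given.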

Additional observations from a re-analysis of the deposited data

How the results depend on the processing

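The alternatives were the 90th and 99th percentile of the olfactory receptors, a background of vomeronasal receptors, or of keratin-associated proteins and beta-defensins, an SD floor for identical values, identical genes left out, quantile normalization, the probe set with the highest mean, the lowest 25% of genes left out, a rule without a model, and each array left out. Members above background numbered 2. They numbered 3 at the 90th percentile and against vomeronasal receptors, and 1 at the 99th percentile and with the SD floor. The count was 0 against keratin-associated proteins and beta-defensins and with identical genes left out, where 1 member was tested. Without an array it was 1 to 2. All genes above background numbered 10567 of 19938, with 12708 at the 90th percentile and 13120 against vomeronasal receptors. The number was 7034 at the 99th percentile and 4210 against keratin-associated proteins and beta-defensins. With identical genes left out it was 6078 of 9627 tested genes, a share of 63.1%. Against keratin-associated proteins and beta-defensins the counts were 2 for peptide processing enzymes, 0 for other receptors and partners, 5 for G protein signalling, 0 for the aldosterone arm, 4 for bud branching and 3 for renin regulators. Other receptors and partners gave 6 at the 90th percentile and against vomeronasal receptors, and 1 at the 99th percentile. They gave 2 of 3 tested with identical genes left out and 2 to 4 without an array. The aldosterone arm gave 4 at the 90th percentile and 4 against vomeronasal receptors. With identical genes left out it gave 0 of 2 tested, and renin regulators gave 3 of 5. The count of vacuolar ATPase subunits stayed between 12 and 18 in all 13 alternatives.

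Among members and genes named from the linked lists that were above background, the margins that turned below 0 at the 99th percentile were those of Agt (−0.50 log2), Mrgprd (−0.48), Arrb1 (−0.44), Agtrap (−0.062) and Wnt11 (−0.015). Against keratin-associated proteins and beta-defensins they were those of Agt (−1.31), Mrgprd (−1.28), Arrb1 (−1.24), Agtrap (−0.86), Wnt11 (−0.82), Spry1 (−0.55), Hsd11b2 (−0.43), Arrb2 (−0.32), Atp6ap2 (−0.25) and Mme (−0.037). Of the members and genes named from the linked lists, those that turned above 0 and were called were, at the 90th percentile and against vomeronasal receptors, Ace (0.060 and 0.28), Bdkrb1 (0.10 and 0.32), Atp6v1e2 (0.046 and 0.27) and Gdnf (0.28 and 0.50). These follow from the height of the background level, which each alternative sets. No paired analysis was possible because the samples form 1 group. Signals near the background level limit what can be said of Agt and Ace.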
